A study of Mus musculus with 2 samples.

Results

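The tenascins (Tnc, Tnn, Tnr, Tnxb), the thrombospondins (Thbs1, Thbs2, Thbs3, Thbs4), Sparc and Postn are 10 genes of the matricellular group, and their transcripts were measured in mouse embryonic fibroblasts (MEFs, connective tissue cells cultured from embryos) without the kinase Lats2 (KO) and in wild-type (WT) MEFs. The members were taken as every non-control probe whose gene name in the array files is one of the 10 symbols. They numbered 17 probes of 10 genes, of 41174 probes and 27579 names on the array. The group was selected on the KO over WT ratios of these same hybridisations, so those ratios are given as a description, and no test is offered in their support.

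Both RNAs were total RNA of untreated cells from C57BL/6J mice, of genotype LATS2-/- for KO and LATS2+/+ for WT. The submitters' genotype field spells the gene LAT2. The age of the embryos and the number of animals behind each RNA are not given in the sources used here. The study read here was taken to describe this experiment, although its methods name another deposit for its arrays. It speaks of independent MEF lines and of littermate controls, without saying which of them gave these RNAs. Each array received both RNAs, one in the red dye Cy5 and the other in the green dye Cy3. On 1 of the 2 arrays KO carried Cy5 (the KO in Cy5 array), and on the other the dyes were exchanged (the KO in Cy3 array). The labels name no separate cultures or animals, so the arrays were counted as 1 replicate. The spread between them measures hybridisation and dye error, and no difference between genotypes below has a replicate check.

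Matricellular proteins are secreted into the matrix around cells, where they tune adhesion and growth factor activity more than they bear load. Tenascins are large oligomeric glycoproteins that loosen the hold of cells on fibronectin, and they are abundant in embryonic and healing connective tissue. Thbs1 and Thbs2 form trimers that bind CD47, CD36 and integrins, and Thbs1 can activate latent TGF-beta, whereas Thbs3 and Thbs4 form pentamers. Sparc (osteonectin) binds collagen and calcium, and Postn (periostin) is a TGF-beta-responsive integrin ligand of periosteum, tendon, heart valve and fibroblasts. Lats2 is a kinase of the Hippo pathway, which restrains the coactivators Yap and Taz.

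A ratio here is the log2 of KO over WT after background correction and dye normalisation on each array. A probe was called when that ratio was at least 1 in size (a 2-fold difference) with a single sign over both arrays, and the spot was well above background on both arrays in the genotype where it was higher. By this rule 2 member probes of 1 gene, Thbs1, were called higher in KO, and 2 member probes, for Tnn and Postn, were called lower. Over all 24186 probes above background, 2.48% were called higher and 2.07% lower. By gene, taking the brightest probe, 1 of the 10 genes was called higher and 2 lower, beside 2.95% and 2.59% of 15877 genes above background. These shares stand beside counts that the choice of members already used, and nothing is read from them. Judged from the gap between the arrays, the log2 ratio of a probe above background on a single array had an SD of 0.136.

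The level of Lats2 itself goes against the labels at most of its probes. Of its 4 probes on the array, 3 were higher in the RNA labelled KO (0.56, 0.57 and 0.63 on the log2 scale). These lie together on chromosome 14, between 56644080 and 56645305 on the minus strand. The other, towards the 5' end at 56676512 to 56676571, was lower (-0.35). Each of the 4 gave a signal well over background in either RNA. Which part of the gene the deletion removed is not given in the sources used here, so probes outside it would check nothing. Every direction below therefore rests on the labels and not on this check, where KO and WT name the RNAs as labelled.

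**Figure D1:**
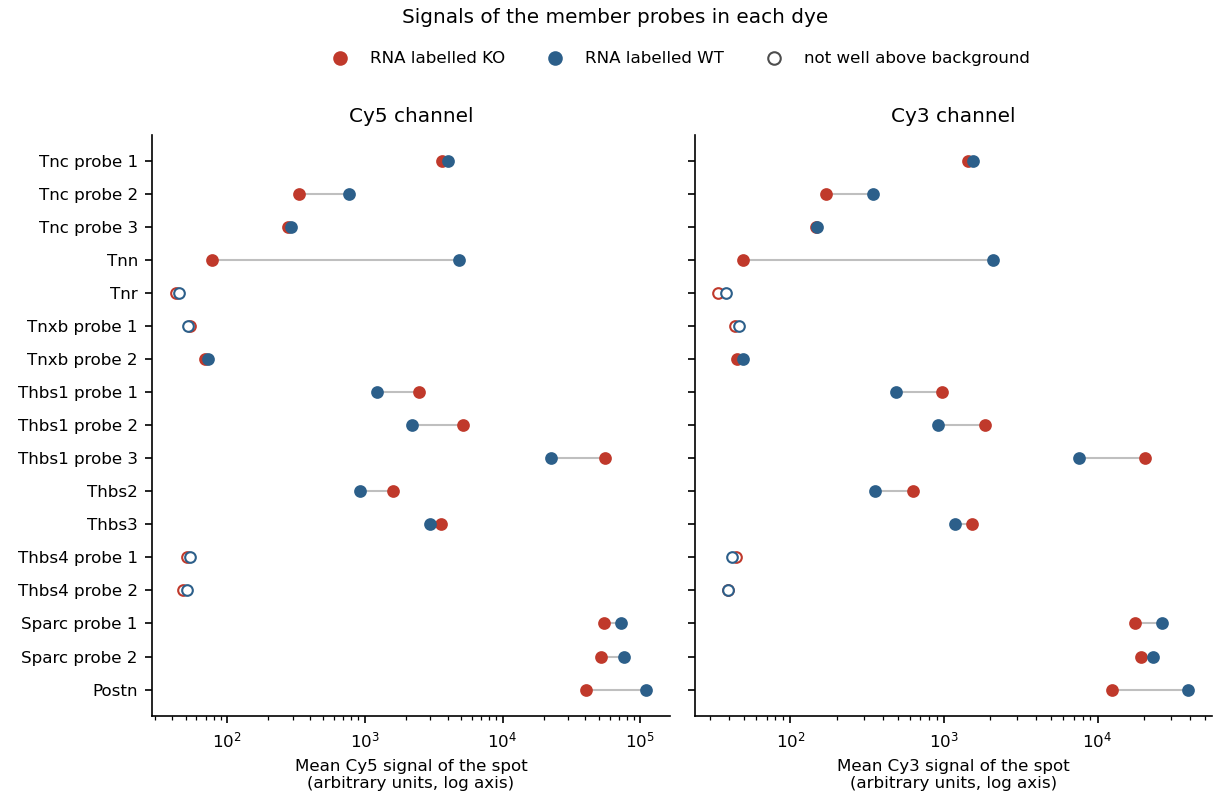
Mean signal of each member spot in arbitrary units on a log axis, with the Cy5 channel on the left and the Cy3 channel on the right. Red points are the RNA labelled KO, blue points the RNA labelled WT, and open points were not well above background. Tnn has the widest gap in each dye, with 78.5 in KO against 4805 in WT for Cy5, and the 3 Thbs1 probes are the other way round.

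The tenascins were followed first. Tnn (tenascin-N, also called tenascin-W, a tenascin of bone, periosteum and tumour stroma) had the lowest ratio of the 10 genes. It is represented by 1 probe on chromosome 1 at 161922408 to 161922466 on the minus strand (NCBI36/mm8 build, as are all probe positions here). Its spot signal in Cy5 was 78.5 in KO and 4805 in WT, and in Cy3 it was 49.0 in KO and 2091 in WT. WT was thus far above KO in each dye, by 61.2-fold in Cy5 and 42.6-fold in Cy3 before any correction. The local background was 38.0 and 29.5 under the KO spots, and KO was still scored well above background on both arrays. The corrected ratio was -5.50 on the KO in Cy5 array and -4.84 on the KO in Cy3 array, a mean of -5.17 ± 0.47 (SD between the arrays). KO held 2.77% of the WT level on this scale. Only 1 of the 24186 probes above background, for Aldh1a3, had a lower mean ratio. The size of the ratio depended on the correction, since the KO signal lay close to background. It was -6.08 with a smaller background offset and -6.93 in the ratio computed by the scanner software, and WT was higher on both arrays under every setting run. In bulk RNA, here and for the genes below, fewer cells that express a gene and less of its RNA per cell cannot be told apart.

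The 250 bases before the annotated start of Tnn and of Postn, the genes called lower, are shown because both genes lie on the same side of the comparison. They come from RefSeq windows on GRCm38.p6, a later build than that of the probes, and are printed in the direction of transcription in lower case, with capitals for motif letters found by a search of both strands. Tnn lies at chr1:160153576-160153825 on the minus strand, and its capitals mark a match to GGAATG, the TEAD core. Postn has a pair of annotated starts, and the downstream one is shown, at chr3:54360857-54361106 on the plus strand, where the capitals mark TATAAA.
Tnn: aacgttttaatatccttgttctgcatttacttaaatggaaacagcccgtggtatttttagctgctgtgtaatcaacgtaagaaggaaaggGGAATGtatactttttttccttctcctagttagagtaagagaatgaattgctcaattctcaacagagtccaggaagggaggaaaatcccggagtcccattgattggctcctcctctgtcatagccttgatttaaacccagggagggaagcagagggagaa
Postn: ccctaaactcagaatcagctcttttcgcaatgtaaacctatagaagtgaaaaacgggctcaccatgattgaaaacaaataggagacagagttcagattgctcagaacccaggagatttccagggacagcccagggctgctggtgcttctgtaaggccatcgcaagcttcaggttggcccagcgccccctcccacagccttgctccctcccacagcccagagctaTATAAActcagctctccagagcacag
Besides the TATA box and the TEAD core, whose letters are given above, the search covered the AP-1 motif in the form TGANTCA. It also covered the Egr motif, with the letters GCGNGGGCG, and the CArG box. These 5 motifs were chosen after the ratios were known, over windows of 300 bases that run past the start. Of 32851 such windows, 13.6% held the TATA box, 14.7% the TEAD core, 7.81% the AP-1 motif, 5.55% the Egr motif and 1.63% a CArG box. Matches of different motifs overlapped in none of the members' windows. Of the 10 genes, 9 had windows, 11 in all. Thbs1, the gene called higher, had no window and was not searched. The TEAD core was in those of Tnn and Thbs4, the TATA letters in those of Postn, Thbs2 and Tnc, the Egr motif in both windows of Tnc and the AP-1 motif in that of Tnxb. The CArG box was in none, and the upstream Postn window held none of the 5. Such matches describe letters in a window and name no bound factor.

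Tnc (tenascin-C, the tenascin of embryonic mesenchyme and wounds) gave different ratios along its length. The probe nearest the 3' end, on chromosome 4 at 63446146 to 63446191, had Cy5 signals of 3651 in KO and 4028 in WT and Cy3 signals of 1437 and 1543. Its ratio was -0.13 on one array and -0.16 on the other, a mean of -0.14 ± 0.02 (SD between the arrays). The probe nearest the 5' end, at 63499575 to 63500338, was also near 0, with Cy5 signals of 278 in KO and 292 in WT, Cy3 signals of 148 in each, and ratios of -0.07 and 0.12. The probe between them, at 63471205 to 63471264, was lower in KO in each dye, with Cy5 signals of 335 in KO and 770 in WT and Cy3 signals of 171 and 347. Its ratio was -1.10 and -0.88, a mean of -0.99 ± 0.15, which is 50.4% of WT.

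This middle probe lay just outside the call, because 1 array stayed under the 2-fold threshold. The array's annotation ties both outer Tnc probes to the RefSeq mRNA, and the middle one to a cDNA clone from neonatal cerebellum and to no RefSeq mRNA. A further probe, described in the file as tenascin C but named by an Ensembl transcript, lay 180 bases away on the same clone, at 63471025 to 63471084. It too was lower in KO, with Cy5 signals of 384 and 717, Cy3 signals of 191 and 341, and ratios of -0.92 and -0.65. The pair over that clone therefore stood at -0.99 and -0.78 while the outer probes stood at -0.14 and 0.02. The clone is not resolved into exons or introns here, and which Tnc transcript it stands for was not tested.

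Neither of the other tenascins was measured well. Tnr (tenascin-R, a tenascin of the nervous system), on chromosome 1 at 161751283 to 161755653, was not well above background in any channel, with signals of 34.0 to 45.1. Tnxb (tenascin-X, which organises collagen fibrils in dermis), on chromosome 17, had 1 probe not well above background, at 34319613 to 34319672, and 1 that was scored above it, at 34327011 to 34327151. The latter had Cy5 signals of 69.3 in KO and 73.4 in WT, Cy3 signals of 45.1 and 49.3, and a mean ratio of 0.02 ± 0.02. These dim spots give no ratio that can be told from 0.

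**Figure D2:**
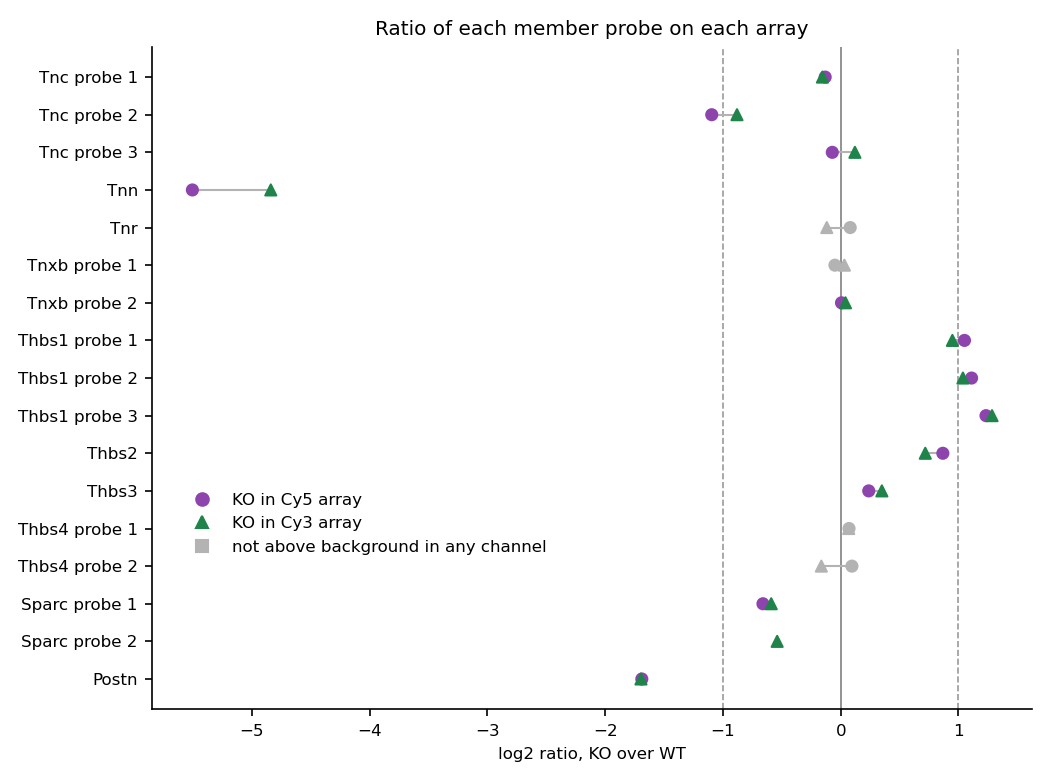
Ratio of each member probe (log2 KO over WT) on the KO in Cy5 array (circles) and the KO in Cy3 array (triangles), with dashed lines at the 2-fold threshold and grey points for probes not above background in any channel. Tnn and Postn lie left of -1 on both arrays, Thbs1 probes 2 and 3 right of 1, and the middle Tnc probe straddles -1.

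Of the 3 thrombospondins above background, Thbs1 was called higher in KO, and Thbs2 and Thbs3 had positive ratios that were not called. Thbs1, the trimeric thrombospondin of platelets and stroma, had 3 probes on chromosome 2, and each was higher in KO in both dyes. The brightest, at 117817480 to 117817539, had Cy5 signals of 55216 in KO and 22420 in WT and Cy3 signals of 20438 and 7529. Its ratio was 1.23 and 1.28, a mean of 1.26 ± 0.04 (SD between the arrays), or 2.39-fold over WT. The probe at 117814035 to 117814094 had Cy5 signals of 5155 and 2219, Cy3 signals of 1840 and 917 and a mean ratio of 1.07 ± 0.05, and was just inside the call, with 1.04 on the KO in Cy3 array. The probe at 117812417 to 117812597 had Cy5 signals of 2492 and 1220 and Cy3 signals of 974 and 485, and was just outside it, with ratios of 1.05 and 0.95. The 3 probes thus spanned a narrow range of means, from 0.9996 to 1.26, so that the call parted probes of nearly the same ratio. Neither Thbs1 call held when arrays were centred on the median in place of loess, with 2.38 on one array and 0.38 on the other for the brightest probe.

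Thbs2, the close relative of Thbs1 that restrains angiogenesis and collagen fibril growth, has 1 probe, on chromosome 17 at 14404116 to 14405379. It gave Cy5 signals of 1602 in KO and 919 in WT and Cy3 signals of 633 and 354. Its ratio was 0.87 and 0.72, a mean of 0.79 ± 0.11 (SD between the arrays), which is 173% of WT and under the call threshold on each array. Thbs3, a pentameric thrombospondin of cartilage and bone, on chromosome 3 at 89312527 to 89312586, gave Cy5 signals of 3601 and 2987 and Cy3 signals of 1526 and 1186. Its mean ratio was 0.29 ± 0.08, or 123% of WT, and it was not called. KO was the higher RNA in each dye for both genes. Thbs4, the pentamer of tendon and muscle, has 2 probes on chromosome 13, starting at 93852363 and 93855918, and neither was well above background in any channel. Its mean ratios of 0.07 and -0.03 carry no direction.

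Sparc and Postn were both lower in KO. Sparc has 2 probes on chromosome 11. The one at 55237934 to 55237993 had Cy5 signals of 54774 in KO and 72445 in WT and Cy3 signals of 17643 and 26188. Its ratio was -0.66 and -0.59, a mean of -0.63 ± 0.05 (SD between the arrays), which is 64.8% of WT. The other, at 55239370 to 55242027, carried an outlier flag on the KO in Cy5 array, so that only the KO in Cy3 array gave a value, -0.54. When flagged spots were kept, it stood at -0.54 on each array. WT was the higher RNA at both probes in both dyes, by less than the 2-fold threshold.

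Postn was called lower, and after loess its ratio hardly differed between the arrays. Its probe, on chromosome 3 at 54478490 to 54478549, had Cy5 signals of 40270 in KO and 110121 in WT and Cy3 signals of 12441 and 39125. WT was above KO in each dye. The ratio was -1.69 and -1.70, a mean of -1.69 ± 0.005 (SD between the arrays), and KO held 30.9% of the WT level. With median centring the arrays gave -0.45 and -2.63, and the call was lost. Lower mean ratios were found for 0.566% of the probes above background. A dim probe at 54468959 to 54469018, named A630052E07Rik in the file and listed by RefSeq as a synonym of Postn, was lower as well. Its Cy5 signals were 100 in KO and 236 in WT, its Cy3 signals 62.9 and 118, and its ratios -0.87 and -0.65. It did not meet the call at the main setting, and the scanner software's ratio for it was -1.72 and -1.49.

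**Figure D3:**
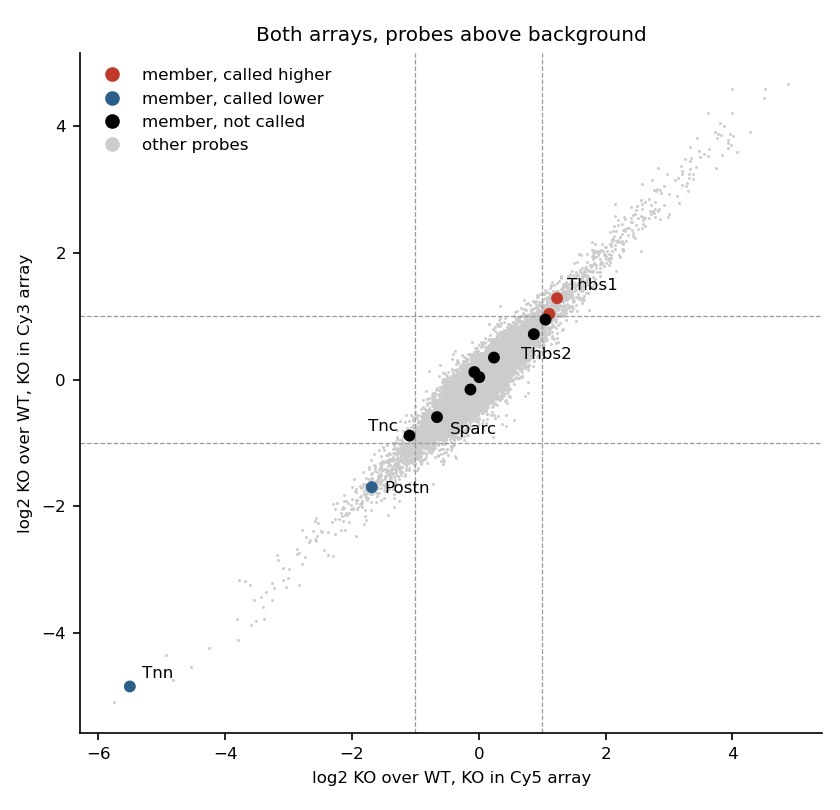
Ratio on the KO in Cy5 array (x axis) against ratio on the KO in Cy3 array (y axis), both log2 KO over WT, for 24186 probes above background (grey) and the member probes among them with a value on both arrays (red called higher, blue called lower, black not called). Dashed lines mark the 2-fold threshold; Tnn sits at -5.50 and -4.84, near the lower end of the cloud.

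Across the 10 genes the ratios went both ways. The median over the 8 genes above background in both RNAs was -0.06, with the dim Tnxb among them. Over all genes above background in KO, WT or both, a wider filter, it was -0.003. Of the 12 member probes above background in both RNAs with a value on both arrays, 7 were higher in KO and 5 lower, and 11 had the same direction on each array. The exception was the 5' Tnc probe, near 0. That probe is counted among the 7, as are the 3 probes of Thbs1. The dim Tnxb probe, at 0.02 and not told from 0, is counted there and among the 11. Tnn had the largest gap between the arrays, 0.67, and Postn the smallest, 0.01.

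The genes around each called member were read from the probe positions. Within 500 kb of the Tnn probe, 4 other genes had probes and 3 were above background, Mrps14 at 0.57, Cacybp at -0.21 and Rabgap1l at -0.40. Near Thbs1, 5 genes were measured, from -0.43 for Bmf to 0.44 for Srp14. Near Postn, 4 of 5 genes were above background, from -0.36 for Rfxap to 0.39 for Alg5. None of these neighbours was called, in either direction.

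Relatives and partners of the members were then described by list. Beside each count called below, marker lists included, stand the shares over all genes above background, 2.95% higher and 2.59% lower. The lists were chosen with earlier results of these data known, and nothing is read from their counts. Of 15 further matricellular genes measured, 12 were above background, and 0 were called higher and 3 lower. These were Sparcl1 (-1.90), a Sparc-like glycoprotein, Fstl1 (-1.60), a follistatin-like protein with a Sparc-type domain, and Tgfbi (-1.59), the closest relative of Postn, whose fasciclin domains it shares. The list's median was -0.36. Among 14 receptors and partners of thrombospondins, 12 were above background, 1 was called higher and 1 lower, with a median of -0.13. Adamts1, a protease with thrombospondin repeats, was at 2.54, and Itgb3, the integrin beta-3 chain that binds thrombospondin, tenascin-C and periostin, was at -1.80. The other Itgb3 probe stood at -0.15, so that the 2 probes of this gene differ.

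Of 18 receptors and partners of tenascins, 14 were above background, with 1 called higher and 2 lower and a median of -0.00. Itga9, whose integrin binds tenascin-C, was at 1.20. Itga8, another tenascin-binding integrin chain, was at -1.32, with its 3 probes between -1.32 and -0.65, and Itgb3 is again the other gene called lower. Of 17 partners of Sparc and Postn, 15 were above background, 0 were called higher and 1, Itgb3, was called lower, with a median of 0.00. Fibronectin (Fn1), which binds both tenascin-C and periostin, was at 0.90, with its 4 probes between 0.27 and 0.99, and the thrombospondin receptor Cd47 was at -0.92 with its 4 probes between -0.92 and -0.55. Fn1 and Cd47 were not called and were named after their values were seen.

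Of 27 signals and factors known to act on these genes, 26 were above background, with 2 called higher, 1 lower and a median of 0.06. Tgfb2, a TGF-beta ligand, was at 1.24, and Id1, a target of bone morphogenetic protein signals, at 1.13. Egr1, an early growth response factor active in tendon and fibroblasts, was at -3.95. The Hippo coactivators and partners, whose values are given although none was called, were at 0.54 for Yap1, 0.05 for Wwtr1 (Taz) and 0.01 to 0.70 for Tead1 to Tead4.

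**Figure D4:**
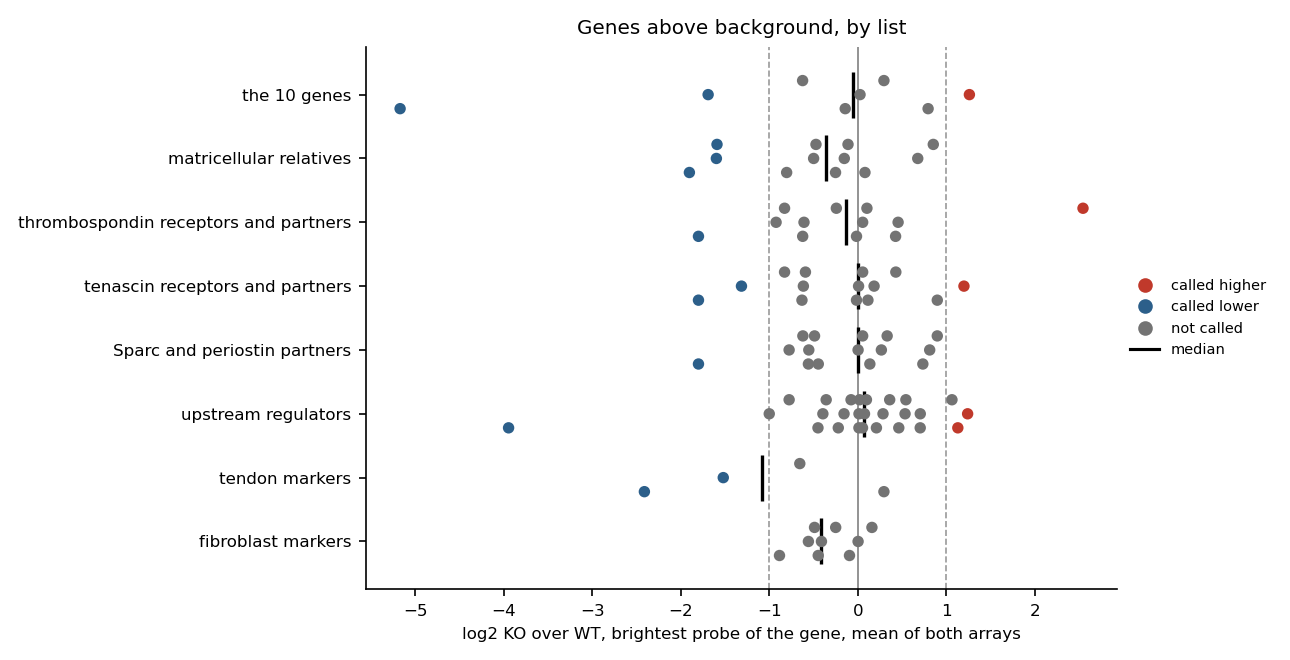
Ratio of each gene above background (log2 KO over WT, brightest probe, mean of both arrays) for the 10 genes, 5 lists of relatives, partners and regulators, tendon markers and fibroblast markers. Points are genes (red called higher, blue called lower, grey not called), vertical bars list medians and dashed lines the 2-fold threshold. The tendon markers have a median of -1.09, with Tnmd and Scx called lower.

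Cell type markers were read beside these results. All 9 measured fibroblast markers were above background in KO, WT or both, and 8 were above it in both. Their median was -0.41 for the brightest probes (-0.16 by the mean over each gene's probes), and none was called. Detection does not single out fibroblasts, since every smooth muscle and tendon marker measured was also above background. None of 6 endothelial and none of 6 skeletal muscle markers was above background. Above it were 3 of 6 macrophage, 2 of 6 epithelial, 4 of 7 neural and glial, 4 of 6 bone and cartilage and 5 of 5 smooth muscle markers. Of these, Cd14 (-1.05) and the contractile gene Cnn1 (-2.11) were called, both lower. Other members of both lists ran the other way without being called. These were Cd68 at 0.14 beside Cd14, and Acta2 at 0.80, with its 5 probes between -0.64 and 0.93, and Tagln at 0.13 beside Cnn1. Myh11 at -0.46 and Smtn at -0.53 lay on the side of Cnn1, also uncalled, and the median of the smooth muscle list was -0.46. Csf1r, the remaining macrophage marker above background, was at -0.05. Bright spots add most to a summed background-subtracted signal, so a sum does not stand for each gene of a list. The sum for the smooth muscle list was higher in KO, unlike its median, with 84426 against 65266 in Cy5 and 30359 against 23689 in Cy3. That of the macrophage list was lower, 294 against 585 and 136 against 276. Ptprc, which defines blood cells, was not above background.

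Of 4 tendon markers, which are read here because Postn is a known product of tendon fibroblasts, all were above background. Beside the 2.59% called lower over all genes above background, 2 of these 4 were called lower. These were Scx (-1.52), the tendon lineage factor, and Tnmd (-2.41), a membrane protein of mature tendon cells. Mkx was at -0.66, and Fmod, at 0.29, lay on the other side; neither was called. The summed background-subtracted signal of the 4 was 1941 in KO and 4077 in WT in Cy5, and 761 and 1554 in Cy3. Their part in the Tnn and Postn results was not tested.

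**Figure D5:**
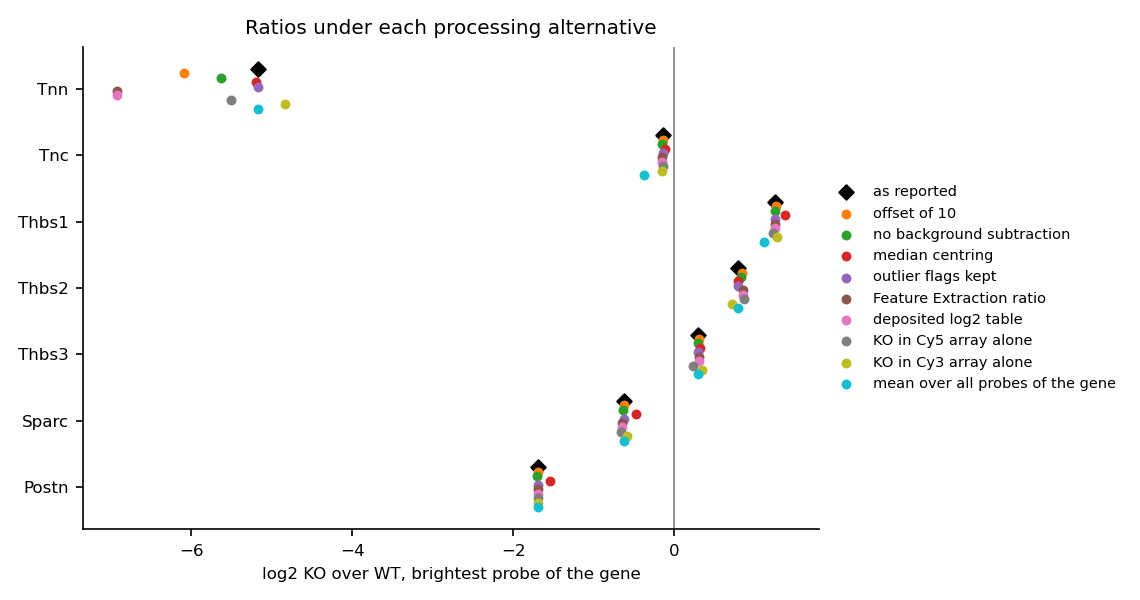
Ratio (log2 KO over WT) for 7 genes under each processing alternative, with the reported value as a black diamond. Values are those of the brightest probe, except in the alternative that takes the mean over all probes of the gene. The direction of the plotted value is the same for each of the 7 at all settings, and Tnn spreads most, from -6.93 to -4.84. For median centring that value is the mean of both arrays. The single arrays then had opposite signs for Tnc, Thbs2, Thbs3 and Sparc, with 0.57 and -1.52 for Sparc.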

How the data were processed

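Both samples are 2-colour hybridisations of KO and WT RNA on the Agilent Whole Mouse Genome platform. Per the file headers and labels, the arrays were read with Agilent Feature Extraction 10.5.1.1, and the authors deposited mean signal and local background as intensity in arbitrary units, its log10 ratio of Cy5 over Cy3, and flags. A deposited table of log2 ratios correlated with the log2 of KO over WT from the Feature Extraction ratio at 0.999888 and 0.99961 across probes, with a median absolute difference of 0 and both arrays turned the same way.

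Background was corrected by normexp with an offset of 50 (limma 3.58.1, R 4.3.3), and ratios were normalised by loess within each array, with control spots at weight 0. The offset pulls ratios of dim spots towards 0. Spots with an outlier flag were dropped, 390 on one array and 378 on the other, none was saturated, and the dye-swapped array was turned. A gene's brightest probe stood for it. Levels were not compared between probes, although the summed signals of marker lists add them.

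With 1 replicate there is no test, and the number of arrays limits the precision. The SD of a probe between the arrays was 0.133 over 40875 probes with a value on both, and their ratios correlated across probes at 0.899. Probes are not independent replicates. Median raw signals were 57.4 to 97.0. The steps were tested on a simulated dye swap with 200 probes changed by 2 on the log2 scale. Of the 112 changed probes above background, 83.9% were recovered, with 0 false calls. The detection condition of the call was not applied in that run, and its noise was set by hand. Its count of false calls is therefore no error rate for the calls reported here. The median estimate was 0.887 of the true change, so changes of this size can be missed and are shrunk.

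All 10 members were named with every probe, and of other lists the genes called. Every other gene named, uncalled markers and regulators included, was picked after its values were seen, and neighbours were taken by position. Members and lists were chosen with earlier results of these data known. Alternatives were a background offset of 10, no background subtraction, median centring, kept flags, the Feature Extraction ratio, the deposited table, each array alone, no detection requirement, the mean over probes and the methods' t-test.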

Additional observations from a re-analysis of the deposited data

How the results depend on the processing

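The 10 members' ratios were recomputed under 9 alternatives, 90 values in all. None that was called changed sign, 76 stayed within the SD of a probe between the arrays and 14 moved further. A sign changed in 5, 2 for Tnr and 3 for Tnxb, both dim and near 0. Tnn ranged from -6.93 to -4.84, Postn from -1.70 to -1.54 and Thbs1 from 1.11 (the mean over its probes) to 1.38. Median centring in place of loess left 0 member probes called higher and 1 lower (Tnn), and 324 and 170 of all probes. The arrays then stood apart as given above for Thbs1 and Postn. For the brightest probes of Tnc, Thbs2, Thbs3 and Sparc they had opposite signs, so that only the mean of both arrays kept its direction. The Feature Extraction ratio and the deposited table called 1284 of all probes higher and 1224 lower, with 3 and 3 member probes, adding the middle Tnc probe and the Thbs1 probe just outside the call. With that ratio the median of the matricellular list was -0.68, against -0.36. The KO in Cy5 array alone also called 3 and 3, and an offset of 10 called 3 and 2. The methods' t-test, takes the dye swap as 2 samples and was run on ratios that chose the members, so it compares these RNAs, not the genotypes, and supports nothing here. It called 524 of all probes higher and 441 lower and 2 and 2 member probes unadjusted, and after Benjamini-Hochberg adjustment 0 of all probes higher, 0 lower, 0 member probes higher and 0 lower. Each ratio pairs KO and WT RNA on the same array. With the 2 arrays, a dye swap, counted as 1 replicate, no replicate pairs were left for a paired test of the genotypes. Single dim spots (Tnr, Thbs4, Tnxb) bear no ratio.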
